A study of Homo sapiens with 16 samples.

Results

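The genes described here are 10 markers of radial glia and astroglia, HOPX, NES, VIM, FABP7, SLC1A3, PTPRZ1, TNC, GFAP, S100B and AQP4, taken by name from a table of 57736 genes. All 10 were found in the table, and all 10 passed the filter on low counts that left 24249 genes for testing. They were followed in the human embryonic stem cell line H9 while it was differentiated toward cortical neurons by dual SMAD inhibition (a block of BMP and TGF-β signalling that turns stem cells into neural stem cells). RNA was sequenced on days 0, 12, 30 and 70 (D0, D12, D30 and D70). At each stage, control cultures received the solvent DMSO and TMG cultures received 40 µM Thiamet-G in DMSO, which blocks the enzyme that removes the sugar O-GlcNAc from proteins.

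There were 8 groups of 2 libraries each, D0 control, D0 TMG, D12 control, D12 TMG, D30 control, D30 TMG, D70 control and D70 TMG, 16 libraries in all. Those at D0 were undifferentiated stem cells that had already received DMSO or TMG, and the others came from differentiating cultures kept in the same agent. Every culture came from this 1 line, and no sort of the cells is described. The study described the 2 libraries of a group as biological replicates. Library totals ran from 10334908 to 19836878 counts. Levels are given as CPM, a gene's counts scaled to a common library size, after TMM scaling of library sizes. Before the TMM scaling, 3 counts corresponded to between 0.151 and 0.29 CPM depending on the library.

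Radial glia are the elongated neural stem cells of the developing cortex. They divide at the ventricle, give rise to neurons first and to astrocytes later, and their fibres guide newborn neurons outward. Nestin (NES) and vimentin (VIM) are intermediate filament proteins of these cells, FABP7 is a fatty acid binding protein, and SLC1A3 (GLAST) is a glutamate transporter that astrocytes keep. PTPRZ1 is a receptor tyrosine phosphatase, tenascin C (TNC) is an extracellular matrix protein, and HOPX is an atypical homeodomain protein used to mark outer radial glia of the human cortex. GFAP, the astrocyte filament protein, S100B, a calcium-binding protein, and AQP4, the water channel of astrocyte endfeet, mark the later glial state. Several of these genes are not limited to glia. Stem cells express PTPRZ1, and fibroblasts and other mesenchymal cells express VIM and TNC.

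TNC, VIM and PTPRZ1, the genes whose called changes against D0 held in both arms with any 1 library left out at D70, are shown by the 250 bases before their annotated start. The sequences are from RefSeq (GRCh38.p14), whose promoter table held an entry for 8 of the 10 genes. They are printed 5′ to 3′ on the strand of the gene, and capitals mark matches on either strand to the 4 strings spelled out after them. The TNC sequence lies at chr9:115118158-115118407, minus strand, the VIM sequence at chr10:17227991-17228240, plus strand, and the PTPRZ1 sequence at chr7:121872911-121873160, plus strand.
TNC: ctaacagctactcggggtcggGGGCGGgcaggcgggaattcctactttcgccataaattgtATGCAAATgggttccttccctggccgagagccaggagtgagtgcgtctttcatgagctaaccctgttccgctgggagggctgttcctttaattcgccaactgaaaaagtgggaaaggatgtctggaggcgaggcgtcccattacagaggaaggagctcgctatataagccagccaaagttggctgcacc
VIM: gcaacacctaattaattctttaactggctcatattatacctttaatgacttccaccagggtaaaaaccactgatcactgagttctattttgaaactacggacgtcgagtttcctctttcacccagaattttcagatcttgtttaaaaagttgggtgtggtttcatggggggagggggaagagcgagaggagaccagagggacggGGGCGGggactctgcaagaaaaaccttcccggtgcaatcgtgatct
PTPRZ1: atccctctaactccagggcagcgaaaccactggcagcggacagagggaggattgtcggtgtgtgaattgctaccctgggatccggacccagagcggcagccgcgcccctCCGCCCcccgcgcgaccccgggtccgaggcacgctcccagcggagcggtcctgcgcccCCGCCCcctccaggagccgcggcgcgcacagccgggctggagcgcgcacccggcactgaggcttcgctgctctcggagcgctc
PTPRZ1 had 29 CpG dinucleotides in this window, and 85.9% of 34788 promoter windows of the same length had fewer. TNC had 12 and VIM had 8, beside a median of 11 over all windows. The GC box string GGGCGG, read on either strand, began 141 and 83 bases before the start in PTPRZ1, 229 bases before it in TNC and 46 bases before it in VIM; 42.6% of all windows held this string. The octamer ATGCAAAT, the string that POU factors bind, began 189 bases before the start of TNC, and 1.62% of all windows held it. The TATA box string TATAAA was held by 10.8% of all windows and by none of these 3. The STAT site TTCNNNGAA was held by 6.57% of all windows and by none of these 3. These matches describe letters only.

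The labelled stages were checked against marker genes of other cell types. The summed level of 8 stem cell markers, OCT4 (POU5F1) and LIN28A among them, lay between 4056 and 4751 CPM in the 4 libraries of D0 and between 9.58 and 19.5 CPM in those of D70. Markers of other tissues rose over the same time. The sum of 10 mesenchyme markers, collagens and LUM among them, lay between 172 and 193 CPM at D0, between 1143 and 1938 CPM at D12, and at 4525 and 5494 CPM in the control and 5965 and 31111 CPM in the TMG libraries of D30. At D70 it was 7615 and 46741 CPM in the control and 3866 and 62134 CPM in the TMG libraries, so that replicate 2 was far above replicate 1 in both arms. The sum of 8 choroid plexus and ependyma markers went the other way, with 10608 and 362 CPM in the control and 3326 and 46.4 CPM in the TMG libraries of D70. TTR, the transthyretin of choroid plexus, made up 9812, 198, 2913 and 0.278 CPM of these. In bulk RNA, fewer cells of a type and less RNA per cell cannot be told apart, which holds for all levels below.

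Of the genes that define mature astrocytes, ALDH1L1 was between 0.966 and 2.64 CPM at D70 and between 1.19 and 1.96 CPM at D0. HEPACAM, an astrocyte adhesion protein, did not exceed 1.03 CPM at D70, and the water channel AQP4 did not exceed 2.92 CPM there. The gap junction gene GJA1, at 468 to 813 CPM at D70, was already at 360 to 581 CPM in undifferentiated cells. ALDH1L1, HEPACAM and GJA1 belong to a list of 22 astrocyte genes, of which 21 were tested, and 6 rose and 1 fell from D0 to D70 in the control, beside 29.8% of all genes called in that comparison. Those that rose included SPARCL1, AGT and CD44, described with the pathways below. OLIG2, which marks oligodendrocyte progenitors and part of the astroglial progenitors, did not exceed 0.21 CPM in any library.

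**Figure D1:**
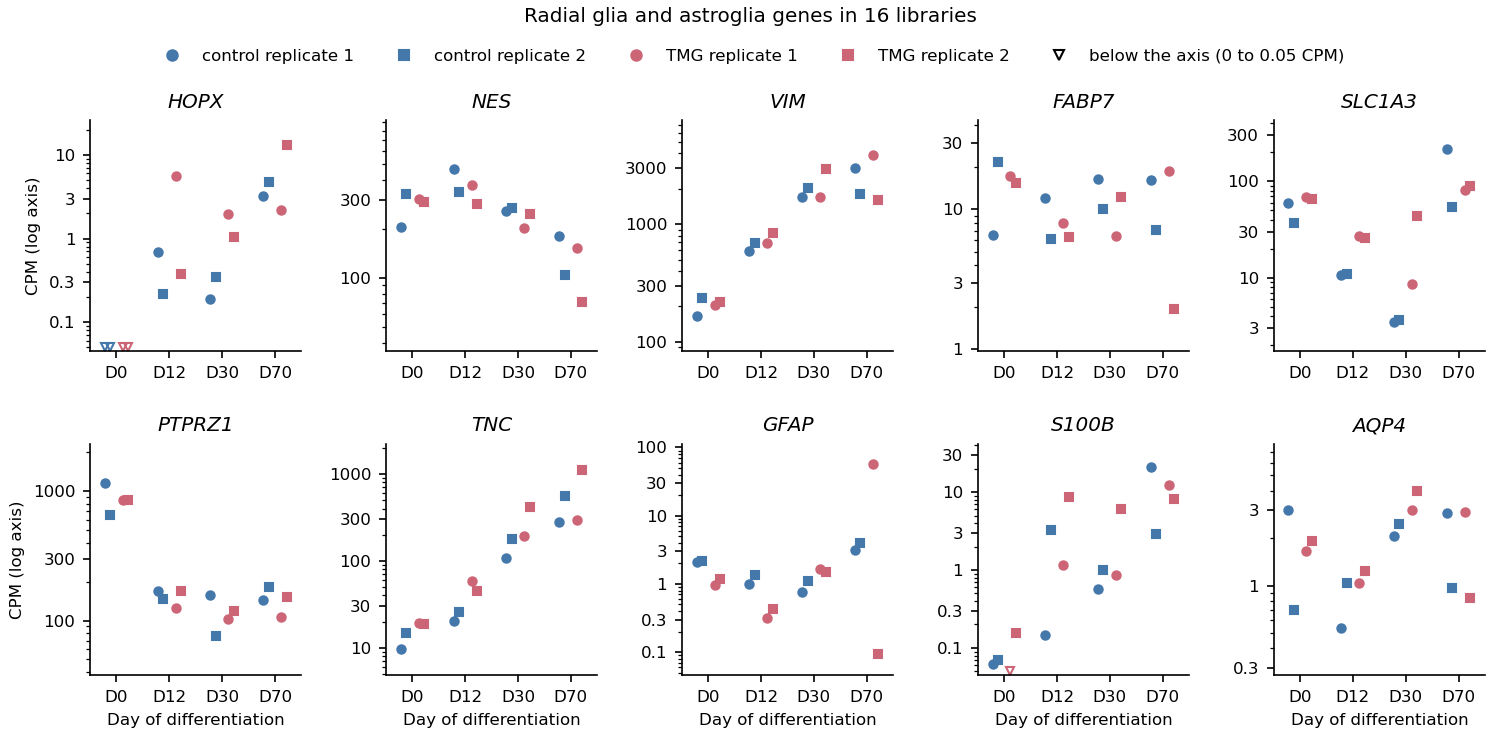
Level of each gene in every library, in CPM on a log axis, by day of differentiation; circles and squares are replicates 1 and 2, blue is control and red is TMG, and open triangles are libraries under 0.05 CPM. VIM and TNC climbed from D0 to D70, PTPRZ1 dropped after D0, and GFAP stood at 56.7 CPM in 1 library of D70 and at 0.0925 CPM in the other TMG library.

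Among the filament genes, VIM (chr10:17270240-17279592 in GRCh37, plus strand) rose at every stage tested against D0 in both arms. Its level was 166 and 234 CPM in the control libraries of D0, 590 and 690 CPM at D12, 1701 and 2013 CPM at D30, and 3027 and 1807 CPM at D70. In TMG it was 207 and 216 CPM at D0, 687 and 847 CPM at D12, 1699 and 2924 CPM at D30, and 3839 and 1612 CPM at D70. The libraries of D0, of D12 and of the 2 later stages formed 3 ranges that did not overlap, while D30 and D70 overlapped. From D0 to D12 the control log2 fold change was 1.68 ± 0.42 (SE, adjusted p = 0.0216, edgeR), a call that ended when any of the 4 libraries compared was left out (adjusted p up to 0.138), as did the TMG call for D12 (adjusted p up to 0.107). From D12 to D30 it was 1.54 ± 0.41 (adjusted p = 0.0679, not called; 0.00428 by DESeq2, 0.0242 without either D70 TMG library and 0.00847 without the D70 libraries) and from D30 to D70 it was 0.38 ± 0.41 (adjusted p = 0.642). D70 against D0 gave 3.59 ± 0.45 (adjusted p = 0.000368) in the control and 3.69 ± 0.45 (adjusted p = 0.000377) in TMG, where it was 2.92 without replicate 1 of D70.

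NES (chr1:156638555-156647199, minus strand) was high in stem cells and lowest at D70. Its control levels were 204 and 328 CPM at D0, 464 and 336 CPM at D12, 255 and 266 CPM at D30, and 181 and 105 CPM at D70. The TMG levels were 306 and 292 CPM at D0, 368 and 286 CPM at D12, 202 and 248 CPM at D30, and 152 and 71.0 CPM at D70. All 4 libraries of D70 lay below the other 12. The control changes were 0.59 ± 0.37 from D0 to D12 (adjusted p = 0.304), -0.62 ± 0.37 from D12 to D30 (adjusted p = 0.384) and -0.87 ± 0.37 from D30 to D70 (adjusted p = 0.250). D70 against D0 gave -0.89 ± 0.37 (adjusted p = 0.0937, not called; up to 0.0423 without either D70 TMG library) in the control and -1.42 ± 0.38 (adjusted p = 0.0178, called) in TMG, and D70 was called lower than D12 in both arms. The D70 against D0 call in TMG ended without either D0 TMG library or without replicate 2 of D70 TMG (adjusted p up to 0.0869), and the value was -2.09 without replicate 1 of D70. The calls of D70 against D12 (adjusted p = 0.0319 in the control and 0.0418 in TMG) ended without any of 7 libraries (adjusted p up to 0.183) and any of 12 libraries (adjusted p up to 0.211).

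GFAP (chr17:42980527-42994305, minus strand) stayed low in 15 of the 16 libraries. It was 2.10 and 2.17 CPM in the control of D0, 0.983 and 1.37 CPM at D12, 0.752 and 1.10 CPM at D30, and 3.15 and 4.02 CPM at D70. In TMG it was 0.961 and 1.19 CPM at D0, 0.312 and 0.435 CPM at D12, 1.65 and 1.51 CPM at D30, and 56.7 and 0.0925 CPM at D70. The 2 TMG libraries of D70 thus held the highest and the lowest GFAP level of the series, 717 counts and 1 count. The control changes were -0.86 ± 1.37 from D0 to D12 (adjusted p = 0.709), -0.32 ± 1.42 from D12 to D30 (adjusted p = 0.930), 1.92 ± 1.42 from D30 to D70 (adjusted p = 0.490, and 0.0344 and 0.0251 without replicate 1 and 2 of D70 TMG) and 0.74 ± 1.34 from D0 to D70 (adjusted p = 0.703). In TMG, D70 against D0 was called at 4.71 ± 1.52 (adjusted p = 0.0396). Without replicate 1 of D70 TMG this change turned to -3.44 (adjusted p = 0.00755), so its direction rested on that library. With 1 library left in the group, this test takes the spread of the lone library to be that of the other groups. The call also ended without any 1 library of D0, D12 or D30 (12 libraries, adjusted p up to 0.194), without the filter on low counts (adjusted p = 0.125) and with the replicate block (adjusted p = 0.0570). CCDC103 and FAM187A, which overlap GFAP on the other strand, had 249 and 198 counts in replicate 1 of D70 control and 90 and 93 counts in replicate 1 of D70 TMG. In replicate 2 they had 15 and 13 counts in D70 control and 0 and 1 in D70 TMG. GFAP itself had 49 and 50 counts in replicates 1 and 2 of D70 control. The share of antisense reads in the GFAP counts was not tested. Sense and antisense reads were not separated by the library kit named in the labels.

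SLC1A3 (chr5:36596690-36688436, plus strand), the glutamate transporter, fell and then rose again in the control. Its control levels were 59.9 and 36.8 CPM at D0, 10.7 and 11.0 CPM at D12, 3.48 and 3.66 CPM at D30, and 215 and 54.6 CPM at D70. In TMG they were 69.1 and 65.1 CPM at D0, 27.0 and 25.7 CPM at D12, 8.65 and 44.1 CPM at D30, and 80.4 and 89.6 CPM at D70. The control libraries of D12 and of D30 lay below every library of D0 and D70, and the D30 pair was the lowest. The control change was -2.15 ± 0.69 from D0 to D12 (adjusted p = 0.0556, not called; 0.00998 by DESeq2 and 0.0188 without the D70 libraries), -1.60 ± 0.71 from D12 to D30 (adjusted p = 0.233) and 5.24 ± 0.80 from D30 to D70 (adjusted p = 0.0279). The last call ended when any library of D0 or D12 or either D30 control library was left out (adjusted p between 0.0529 and 0.356), with a log2 fold change between 5.20 and 5.28. The value was 3.93 without replicate 1 of D70 control and 5.88 without replicate 2, both still called, so its size rested on the D70 libraries. D30 was also called lower than D0 in the control, a call that held with each library left out in turn, and D70 higher than D12, a call that ended without either D12 control library or replicate 1 of D70 control (adjusted p up to 0.119). D70 against D0 gave 1.48 ± 0.67 (adjusted p = 0.116; 0.0336 without replicate 2 of D70 control, where it was 2.16, and up to 0.0490 without either D30 TMG library) in the control and 0.34 ± 0.66 (adjusted p = 0.727) in TMG, where none of the 6 pairs of stages was called.

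PTPRZ1 (chr7:121513143-121702090, plus strand), a receptor for pleiotrophin and tenascins, was a gene of the undifferentiated cells here. It stood at 1168 and 654 CPM in the control of D0, 170 and 146 CPM at D12, 158 and 75.8 CPM at D30, and 144 and 181 CPM at D70. In TMG it was 864 and 852 CPM at D0, 124 and 171 CPM at D12, 102 and 120 CPM at D30, and 106 and 151 CPM at D70. The lowest library of D0 was above every library of the later stages, and D12, D30 and D70 overlapped. The change from D0 to D12 was -2.53 ± 0.38 in the control (adjusted p = 0.00258) and -2.54 ± 0.38 in TMG (adjusted p = 0.00243). D12 to D30 gave -0.44 ± 0.36 (adjusted p = 0.533) and D30 to D70 gave 0.47 ± 0.36 (adjusted p = 0.505) in the control. D70 against D0 gave -2.49 ± 0.38 in the control (adjusted p = 0.00102) and -2.74 ± 0.38 in TMG (adjusted p = 0.000688). No left-out library and no other setting ended these 4 calls against D0.

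TNC (chr9:117781854-117880486, minus strand), the matrix protein, had the largest rise among the genes that were counted well at D0. Its control levels were 9.70 and 14.8 CPM at D0, 20.5 and 25.7 CPM at D12, 108 and 178 CPM at D30, and 279 and 554 CPM at D70. In TMG they were 19.1 and 18.9 CPM at D0, 58.1 and 45.5 CPM at D12, 193 and 419 CPM at D30, and 298 and 1114 CPM at D70. Within the control, no library of a stage overlapped with another stage, and each stage was above the one before. The control change was 0.92 ± 0.58 from D0 to D12 (adjusted p = 0.308), 2.63 ± 0.61 from D12 to D30 (adjusted p = 0.0425) and 1.54 ± 0.58 from D30 to D70 (adjusted p = 0.201). D70 against D0 gave 5.09 ± 0.68 in the control (adjusted p = 0.000542) and 5.22 ± 0.68 in TMG (adjusted p = 0.000528), where it was 5.86 without replicate 1 of D70 and 3.97 without replicate 2. The call from D12 to D30 ended when any library of D0 or D12 or either D30 control library was left out (adjusted p up to 0.235), and without the filter on low counts (adjusted p = 0.115).

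The levels of TNC were highest in the libraries with the most mesenchyme marker RNA. Replicate 2 of D30 TMG, with 419 CPM of TNC, had 31111 CPM over the mesenchyme list against 4525 to 5965 CPM in the other libraries of D30. At D70, TNC was 554 and 1114 CPM in the libraries with 46741 and 62134 CPM of mesenchyme markers, and 279 and 298 CPM in those with 7615 and 3866 CPM. VIM was in the opposite order at D70, with 3027 and 3839 CPM in the libraries of replicate 1 and 1807 and 1612 CPM in those of replicate 2. At D30, though, VIM was highest in the same library as TNC, with 2924 CPM against 1699 to 2013 CPM in the other libraries of D30. TNC and the mesenchyme sum did not share an order in all libraries. Replicate 1 of D70 TMG had a lower mesenchyme sum than every library of D30. Its 298 CPM of TNC lay above the 108 to 193 CPM of all D30 libraries but replicate 2 of TMG. The mesenchyme list had all 10 of its genes tested, and 7 rose and none fell from D0 to D70 in the control, beside 29.8% of all genes called; its part in the TNC values was not tested.

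**Figure D2:**
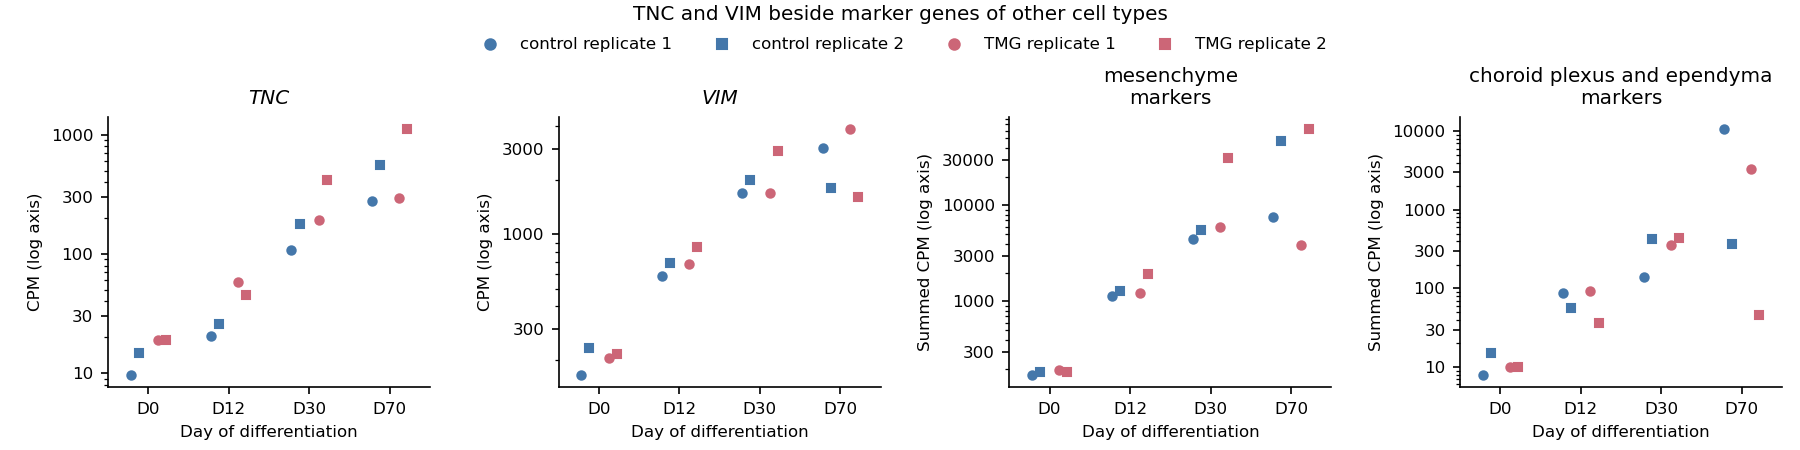
TNC and VIM in CPM, and the summed CPM of 10 mesenchyme and 8 choroid plexus and ependyma markers, in every library by day of differentiation on log axes; symbols mark arm and replicate. At D70 TNC and the mesenchyme sum were higher in replicate 2 of both arms, and VIM and the choroid plexus sum were higher in replicate 1.

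HOPX (chr4:57514155-57548043, minus strand) had no count in any of the 4 libraries of D0. In these libraries 3 counts corresponded to 0.156 to 0.224 CPM before TMM scaling. Its control levels were 0.688 and 0.219 CPM at D12, 0.188 and 0.351 CPM at D30, and 3.21 and 4.75 CPM at D70. In TMG they were 5.56 and 0.373 CPM at D12, 1.94 and 1.04 CPM at D30, and 2.21 and 13.04 CPM at D70. D70 lay above D12 and D30 in the control, while in TMG 1 library of D12 was above 1 library of D70. The 13.04 CPM came from replicate 2 of D70 TMG. That library had the highest mesenchyme marker sum, 62134 CPM, and the lowest sum over 15 radial glia and neural stem cell genes, 673 CPM. The part of other cell types in its HOPX level was not tested. Set against a floor of 3 counts over the D0 group, the HOPX level at D70 was at least 37.6-fold higher in the control and at least 69.2-fold higher in TMG. The TMG bound was 21.6 with replicate 1 of D70 alone and 123 with replicate 2 alone, on 28 and 141 counts, and the control bounds were 29.1 and 50.0. Both differences were called (adjusted p = 0.0152 and 0.00903), and both calls ended without either D0 library of the same arm (adjusted p up to 0.0792 and 0.0635). From D12 to D30 the control change was -0.68 ± 1.37 (adjusted p = 0.826) and from D30 to D70 it was 3.78 ± 1.34 (adjusted p = 0.192; 0.0486 by DESeq2). HOPX was called higher than at D0 in TMG at D12 and D30 too (adjusted p = 0.0281 and 0.0354), on 113 and 31 counts over the group. Both calls ended without the filter on low counts (adjusted p = 0.0724 and 0.0917), and they ended with 3 and 6 of the 16 libraries left out in turn (adjusted p up to 0.160 and 0.151), the D0 TMG libraries among them.

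S100B (chr21:48018517-48025121, minus strand), the calcium-binding protein of astrocytes and Schwann cells, rose from near 0. Its control levels were 0.0618 and 0.0699 CPM at D0, 0.147 and 3.23 CPM at D12, 0.564 and 1.00 CPM at D30, and 20.8 and 2.90 CPM at D70. In TMG they were 0 and 0.155 CPM at D0, 1.14 and 8.64 CPM at D12, 0.874 and 6.15 CPM at D30, and 12.2 and 8.23 CPM at D70. Replicates differed most at D12 in both arms, at D30 in TMG and at D70 in the control. Over the group, the control held 2 counts at D0 and 360 at D70, a ratio of 187 with an exact 95% counting interval of 51.3 to 1550. Of these 360 counts, 324 were in replicate 1, and with replicate 2 of D70 alone the ratio was 45.8 (interval from 11.8 to 392). TMG held 3 and 243 counts, a ratio of 99.5 with an interval of 33.7 to 486; intervals and floors cover counting error only. Both differences were called (adjusted p = 0.0176 and 0.0211). They were not called without the filter on low counts (adjusted p = 0.0654 and 0.0763) or without either D0 library of the same arm, and the control call also ended without replicate 1 of D70. The changes in the control were -1.06 ± 1.43 from D12 to D30 (adjusted p = 0.725) and 3.87 ± 1.50 from D30 to D70 (adjusted p = 0.210), and D12 against D0 was not called (adjusted p = 0.135; 0.0298 by DESeq2). At D12, S100B was highest in replicate 2 of TMG, where SOX10, a neural crest and oligodendrocyte factor, was at 185 CPM against 44.7 to 59.2 CPM in the other libraries of that stage. The part of neural crest cells in this level was not tested.

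FABP7 and AQP4 were called in none of the 12 comparisons of stages. FABP7 (chr6:123100861-123105219, plus strand) was 6.55 and 21.8 CPM in the control of D0, 12.04 and 6.13 CPM at D12, 16.5 and 10.1 CPM at D30, and 16.2 and 7.16 CPM at D70. In TMG it was 17.2 and 15.5 CPM at D0, 8.05 and 6.40 CPM at D12, 6.41 and 12.3 CPM at D30, and 18.8 and 1.94 CPM at D70. In the control every pair of stages overlapped, and in TMG both libraries of D0 lay above those of D12 and D30. The control changes were -0.64 ± 0.86 from D0 to D12 (adjusted p = 0.650), 0.55 ± 0.86 from D12 to D30 (adjusted p = 0.766), -0.18 ± 0.86 from D30 to D70 (adjusted p = 0.933) and -0.27 ± 0.85 from D0 to D70 (adjusted p = 0.832).

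AQP4 (chr18:24432007-24445735, minus strand) was 3.03 and 0.699 CPM in the control of D0, 0.541 and 1.04 CPM at D12, 2.07 and 2.46 CPM at D30, and 2.89 and 0.966 CPM at D70. In TMG it was 1.65 and 1.91 CPM at D0, 1.04 and 1.24 CPM at D12, 3.01 and 3.98 CPM at D30, and 2.92 and 0.832 CPM at D70. The D12 libraries lay below those of D30 in both arms. The control changes were -1.24 ± 0.76 from D0 to D12 (adjusted p = 0.291), 1.52 ± 0.77 from D12 to D30 (adjusted p = 0.292), -0.22 ± 0.74 from D30 to D70 (adjusted p = 0.903) and 0.05 ± 0.74 from D0 to D70 (adjusted p = 0.966). None of these was called.

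**Figure D3:**
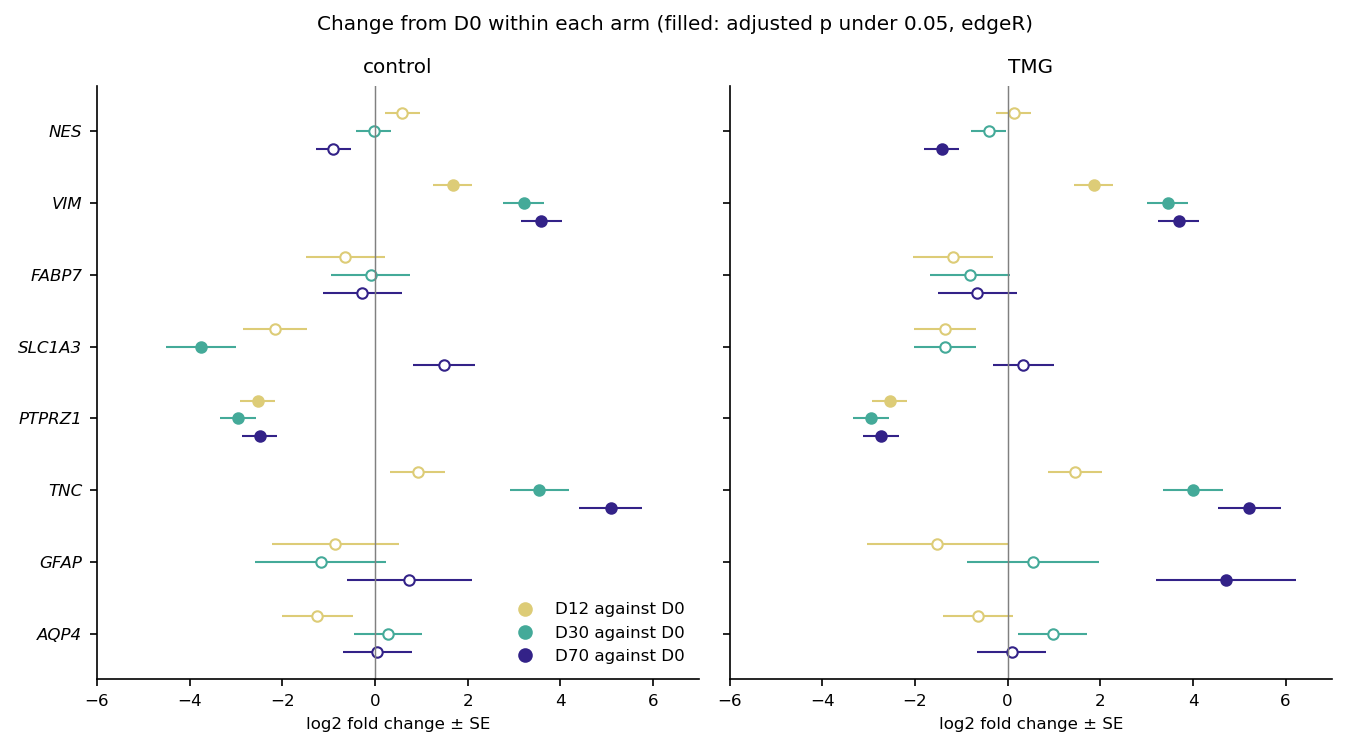
Log2 fold change from D0 with its standard error (edgeR) in control and in TMG, for 8 of the genes, leaving out HOPX and S100B, which had 0 to 3 counts over a D0 group; filled points had an adjusted p under 0.05. VIM and TNC lay to the right of 0 and PTPRZ1 to the left in both arms, while SLC1A3 was filled only at D30 in the control and GFAP only at D70 in TMG.

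Counted over the 10 genes, the shares called were read against the share of all 24249 genes called in the same comparison. In the control, D12 against D0 called VIM higher and PTPRZ1 lower, 2 of 10 beside 16.7% of all genes. D30 against D0 called VIM and TNC higher and SLC1A3 and PTPRZ1 lower, 4 of 10 beside 30.6%. D70 against D0 called HOPX, VIM, TNC and S100B higher and PTPRZ1 lower, 5 of 10 beside 29.8%. The HOPX and S100B calls ended without either D0 control library. D30 against D12 called TNC higher, 1 of 10 beside 3.60%. D70 against D12 called VIM, SLC1A3 and TNC higher and NES lower, 4 of 10 beside 11.1%. Of these, the VIM call (adjusted p = 0.0181, edgeR) ended without either D12 control library or replicate 1 of D70 control. The TNC call (adjusted p = 0.00481, edgeR) ended without replicate 1 of D12 control. D70 against D30 called SLC1A3 higher, 1 of 10 beside 0.384%. DESeq2 called 5 of the 10 in D12 against D0, beside 21.6% of the genes to which it gave an adjusted p, 2 in D30 against D12, beside 12.2%, and 2 in D70 against D30, beside 8.13%.

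In TMG, D12 against D0 called HOPX and VIM higher and PTPRZ1 lower, 3 of 10 beside 16.4% of all genes. D30 against D0 called HOPX, VIM and TNC higher and PTPRZ1 lower, 4 of 10 beside 27.7%. D70 against D0 called HOPX, VIM, TNC, GFAP and S100B higher and NES and PTPRZ1 lower, 7 of 10 beside 29.0%. The HOPX, GFAP, S100B and NES calls ended without either D0 TMG library, and the direction of GFAP rested on replicate 1 of D70 TMG. D30 against D12 called 0 of 10 beside 0.511%, where 2 of the 10 had an unadjusted p under 0.05, beside 15% of all genes. D70 against D12 called VIM and TNC higher and NES lower, 3 of 10 beside 5.15%. Of these, the VIM call (adjusted p = 0.0339, edgeR) ended with any of 9 of the 16 libraries left out. The TNC call (adjusted p = 0.0113, edgeR) ended without either D12 TMG library. D70 against D30 called 0 of 10 beside 0.00825%, where 3 of the 10 had an unadjusted p under 0.05, beside 11% of all genes; DESeq2 called 2 of the 10 in D30 against D12, beside 5.21%, and 0 in D70 against D30, beside 1.75%.

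The order of levels between genes was compared per kilobase of the main transcript. In the control of D0 the highest means were those of PTPRZ1, with 112 CPM per kilobase, VIM, with 92.9, and NES, with 47.7, and the lowest were those of S100B, with 0.0594, and HOPX, with 0. The libraries of PTPRZ1, from 80.7 to 144, and VIM, from 77.1 to 109, overlapped, so which of them led was not separated, and both lay above NES, from 36.6 to 58.8. In the control of D70, VIM led with 1122 CPM per kilobase, TNC followed with 49.0, SLC1A3 with 34.5, NES with 25.7 and PTPRZ1 with 20.01. HOPX was at 3.55, GFAP at 0.652 and AQP4 at 0.374 CPM per kilobase. Among TNC, SLC1A3, NES and PTPRZ1, each pair of neighbours in this order had overlapping libraries, while the TNC libraries, at 32.8 and 65.2 CPM per kilobase, lay above both those of NES, at 18.8 and 32.5, and those of PTPRZ1, at 17.7 and 22.3.

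The question of the study was whether raised O-GlcNAc changes gene expression during neural differentiation. At a false discovery rate of 5%, none of the 10 genes was called between TMG and control at any stage, beside 0% of all genes at D0, D12, D30 and D70. At an unadjusted p under 0.05 the count was 0 of 10 at D0 beside 1.26% of all genes, 0 of 10 at D12 beside 2.48%, 1 of 10 at D30 beside 12%, and 0 of 10 at D70 beside 5.49%. DESeq2 on the 16 libraries called 1 of the 10, SLC1A3, at D30, beside 3.22% of the genes to which it gave an adjusted p, and none at D0, D12 and D70, beside 0.0116%, 0.0525% and 0.214%. DESeq2 on the 4 libraries of a stage called SLC1A3 and TNC at D12, beside 0.571%, and SLC1A3 at D30, beside 2.72%, and none at D0 and D70, beside 0.0163% and 0.00811%. The median log2 fold change of the 10 genes was 0.125 at D0, 0.394 at D12, 0.682 at D30 and -0.104 at D70, where the median over all genes was -0.0021, 0.0028, 0.011 and -0.010. HOPX, which had no count at D0, entered the D0 median as 0, which is no measured effect.

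Genes were also counted as separated where both TMG libraries lay above, or both below, both control libraries. At D0 this held for 3 of 10 genes beside 36.6% of all genes, with TNC and SLC1A3 higher and GFAP lower in TMG. At D12 it held for the same 3 genes in the same directions, beside 34.3% of all genes. At D30 it held for 6 of 10 beside 44.1%, with HOPX, TNC, SLC1A3, GFAP and AQP4 higher and NES lower. At D70 it held for 0 of 10 beside 22.1%. TNC and SLC1A3 were separated in the same direction at D0, D12 and D30, 2 of 10 beside 4.20% of all genes.

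SLC1A3 had the smallest p of the 10 genes under TMG. At D30 its TMG libraries were at 8.65 and 44.1 CPM and its controls at 3.48 and 3.66 CPM, and the log2 fold change was 2.88 ± 0.73 (95% interval from 1.27 to 4.50, adjusted p = 0.206, edgeR). With 1 TMG library left it was 1.27 without replicate 2 of D30 TMG (adjusted p = 1.0) and 3.62 without replicate 1 (adjusted p = 0.0407). That replicate 2 was also the library with 31111 CPM of mesenchyme markers and had the highest neuron marker sum of D30, 792 CPM against 326 to 540 CPM. At D12 the TMG libraries, 27.0 and 25.7 CPM, were both above the controls, 10.7 and 11.0 CPM, with little spread within an arm, and the log2 fold change was 1.28 ± 0.67 (adjusted p = 1.0). At D0 it was 0.47 ± 0.66 (adjusted p = 1.0). At D70 the arms overlapped, with controls at 215 and 54.6 CPM and TMG at 80.4 and 89.6 CPM.

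TNC had log2 fold changes under TMG of 0.64 ± 0.58 at D0 (95% interval from -0.65 to 1.93), 1.16 ± 0.58 at D12 (from -0.12 to 2.45) and 1.09 ± 0.58 at D30 (from -0.18 to 2.36). The adjusted p-values were 1.0, 1.0 and 0.481 by edgeR. HOPX was higher in both TMG libraries of D30, with a log2 fold change of 2.37 ± 1.35 (adjusted p = 0.530) on 31 counts in TMG and 9 in the control. GFAP gave -0.98 ± 1.39 at D0 (adjusted p = 1.0), -1.64 ± 1.52 at D12 (adjusted p = 1.0) and 0.74 ± 1.45 at D30 (adjusted p = 0.896). At D30, AQP4 gave 0.62 ± 0.73 (adjusted p = 0.801) and NES gave -0.21 ± 0.37 (adjusted p = 0.880). None of these differences passed the test, and among all those given here between the arms at D0, D12 and D30, only the interval of SLC1A3 at D30 did not include 0.

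At D70 GFAP gave 2.98 ± 1.39 (adjusted p = 0.902) over TMG libraries that differed from 717 counts to 1 count. It was 3.98 without replicate 2 of D70 TMG (adjusted p = 0.00420) and -5.16 without replicate 1 (adjusted p = 0.00646). Each of these compares 1 TMG library with the controls and borrows its spread from the other groups, so the values show opposite directions of the 2 libraries and are no test of TMG. The replicates of D70 differed in the same direction in both arms for 8 of the 10 genes beside 69.8% of all genes, for 7 of 10 at D12 beside 64.7%, for 6 of 10 at D30 beside 59.0% and for 5 of the 9 genes counted at D0 beside 51.0%. These counts are near the shares over all genes, and the low genes enter them on a few counts.

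**Figure D4:**
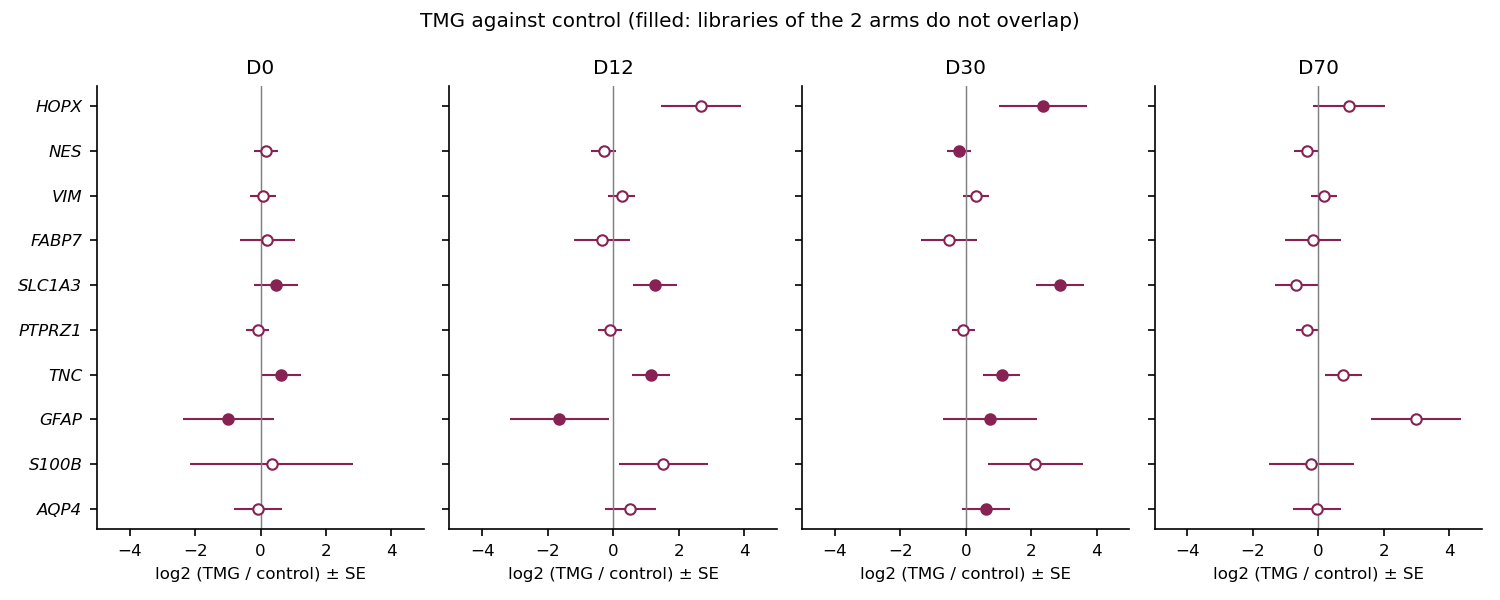
Log2 fold change of TMG over control with its standard error (edgeR) for each gene at each stage; filled points are genes whose TMG libraries both lay above or both below both controls, and HOPX has no value at D0, where it had no count. SLC1A3 and TNC were filled and to the right of 0 at D0, D12 and D30, and no gene was filled at D70.

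The TMG effects of consecutive stages were compared in the same fit. No gene of the 10 was called in D12 minus D0, D30 minus D12 or D70 minus D30 by edgeR, beside 0% of all genes in each. At an unadjusted p under 0.05 it was 0 of the 10 in D12 minus D0, beside 1.07% of all genes, 0 in D30 minus D12, beside 3.41%, and 1 in D70 minus D30, SLC1A3, beside 4.03%. The SLC1A3 effect at D70 minus that at D30 was a log2 difference of -3.55 ± 0.98 (95% interval from -5.71 to -1.39, adjusted p = 1.0). Its size rested on single libraries. The D30 effect was 2.88 with all libraries and 1.27 without replicate 2 of D30 TMG, and the D70 controls were at 215 and 54.6 CPM.

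Genes from the pathways around these markers were counted in the same way. Of 15 radial glia and neural stem cell genes tested, 2 rose and 2 fell from D0 to D70 in the control, beside 29.8% of all genes called. NR2E1 and PAX6, transcription factors of neural stem cells, rose by 5.94 and 5.06 on the log2 scale, and SFRP1, a secreted inhibitor of WNT signalling, and SOX2, a factor of stem cells and neural progenitors, changed by -2.45 and -1.47. The sum over this list was 1333 to 1557 CPM at D0, 2487 to 3480 CPM at D12, 1870 to 2613 CPM at D30 and 673 to 2167 CPM at D70, with replicate 2 of D70 TMG the lowest of all. Of 9 outer radial glia genes, 4 rose and none fell, beside the same 29.8% of all genes. Those that rose were FAM107A (log2 fold change 5.40), IL6ST (3.60), the shared receptor of the interleukin 6 family, BMP7 (2.01) and STAT3 (1.02). In replicates 1 and 2 of D70 control they were at 107 and 17.2, 213 and 325, 206 and 54.0, and 275 and 175 CPM in the same order. Of 14 gliogenic factors and receptors, 8 rose and none fell, again beside 29.8%, among them the nuclear factors NFIX (8.18), NFIA (4.38) and NFIB (3.21). IL6ST and STAT3 stand on this list and on the outer radial glia list and were counted in both. The lists, here and below, share further genes, so their counts are not independent. NFIX was 0.309 and 0.560 CPM at D0 and 78.7 and 175 CPM at D70 in the control. At D30 NFIX, NFIA and NFIB were highest in replicate 2 of TMG, the library with 31111 CPM of mesenchyme markers. NFIX was 134 CPM there, against 0.752 to 7.19 CPM in the other libraries of D30. At D70 NFIX and NFIB were higher in replicate 2 of both arms, and NFIA in replicate 1. The part of mesenchymal cells in these levels was not tested.

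Of 21 astrocyte genes tested, 6 rose and 1 fell from D0 to D70 in the control and 8 rose and 1 fell in TMG, beside 29.8% and 29.0% of all genes called. Those that changed most in the control were AGT (6.02), the angiotensin precursor, SPARCL1 (5.95), a matricellular protein, CD44 (4.60), a hyaluronan receptor that mesenchymal cells also carry, and CHI3L1 (3.09). In replicates 1 and 2 of D70 control they were at 4.56 and 13.4, 77.4 and 14.2, 67.4 and 111, and 2.44 and 7.24 CPM in the same order. Of 19 partners and relatives of the 10 genes, 4 rose and 1 fell, with AQP1 (8.08), the water channel of choroid plexus, TNR (4.14), the neural tenascin, and S100A10 (2.44) higher and the neurofilament gene NEFM (-2.18) lower. The share of all genes called in this comparison was 29.8%. Under TMG, none of the genes of these lists was called at any stage. At an unadjusted p under 0.05 there were none in any of the 5 lists at D0, and at D12 there were 1 gliogenic gene and 1 partner, beside 1.26% and 2.48% of all genes. At D30 there were 2 of 15 radial glia genes, 4 of 9 outer radial glia genes, 4 of 21 astrocyte genes, 5 of 14 gliogenic genes and 10 of 19 partners, beside 12% of all genes. Without replicate 2 of D30 TMG, the library with 31111 CPM of mesenchyme markers, these became 0 of 15, 0 of 9, 2 of 22, 0 of 14 and 3 of 19, beside 4.27% of all genes, and without replicate 1 they became 2, 6, 6, 7 and 9, beside 17%. At D70 there were 3 of 15, 1 of 9, 1 of 21, 2 of 14 and 3 of 19 in the same order, beside 5.49%.

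Of the lists for other cell types, 7 of 10 mesenchyme, 5 of 8 choroid plexus and ependyma, 5 of 8 retina and pigment epithelium and 3 of 10 neuron markers rose from D0 to D70 in the control, beside 29.8% of all genes called. LUM, a collagen-binding proteoglycan, went from 0 counts to 1.86 and 454.5 CPM, and TYRP1, an enzyme of melanin synthesis, from 0.0618 and 0.350 CPM to 38.1 and 323 CPM. DCX, a microtubule protein of young neurons, went from 24.7 and 34.3 CPM to 513 and 152 CPM. RBFOX3, a marker of mature neurons, fell, as did all 8 stem cell and all 10 proliferation markers. Of 8 neural crest and Schwann cell markers, 0 rose and 1, FOXD3, fell, and of 7 oligodendrocyte lineage markers tested 1 rose (PDGFRA) and 1 fell (OLIG1). PDGFRA is also a mesenchymal receptor.

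For each gene, the closest profiles among all 24249 genes were taken by the root mean square difference of log2 CPM over the 16 libraries after centring. TNC was closest to COL5A1, a fibrillar collagen, at 0.46, and SMARCA2, at 0.56, where its own spread over the libraries was 2.07. VIM was closest to OAF, at 0.28, and KIFAP3, at 0.32, with an own spread of 1.46. PTPRZ1 was closest to NLN, at 0.31, and CDYL-AS1, at 0.31, with an own spread of 1.22, and NES to CBARP, at 0.24, and BRICD5, at 0.24, with an own spread of 0.67. The closest genes to HOPX were EPAS1, at 0.69, and KRT80, at 0.78, and to AQP4 ST6GALNAC3, at 0.41, and SAMD13, at 0.42. FABP7 was closest to ST6GALNAC5, at 0.49, and TSKU-AS1, at 0.50, and SLC1A3 to SCN4B, at 0.71, and GPRIN1, at 0.77. GFAP and S100B had no profile nearer than 0.94 (DMBX1, with GABRG1 at 0.95) and 0.90 (RHOJ, with GALNT5 at 0.95). The libraries share stages and cell mixtures, so these distances are a description.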

How the data were processed

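Total RNA of H9 cultures was depleted of ribosomal RNA and sequenced. The values deposited by the authors are estimated counts per Ensembl gene from RSEM 1.2.12, given as whole numbers and not normalized, after alignment with Bowtie2 (build hg19). Libraries were grouped by their titles, which match the names of the count columns. For 8 of the 16 libraries a separate treatment tag names the other arm. All values given by arm rest on the grouping by title. RSEM shares reads between similar or overlapping genes, so such counts are uncertain, and reads of a gene and its antisense partner were not separated.

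The genes and gene lists were chosen with earlier results of these data known. Counts were tested with edgeR 4.0.16 (R 4.3.3): filterByExpr over the 8 groups (minimum count 10, minimum total 15), TMM, robust dispersion and quasi-likelihood F-tests with 1 mean per group (8 residual degrees of freedom). Within each comparison the Benjamini-Hochberg adjustment covered 24249 genes, and a gene was called at a false discovery rate under 5%. The standard error is the log2 fold change divided by the square root of F, and 95% intervals use the t quantile of each gene's total degrees of freedom in the fit. P-values measure only the spread between libraries of a group, pooled over the 8 groups. Positions are from GENCODE in GRCh37 coordinates.

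Values under TMG were given where both TMG libraries lay outside the controls or the unadjusted p was under 0.05, and otherwise only the levels (the D70 values of GFAP were added after they were seen). Stage changes were given for consecutive stages and D70 against D0. Other lists were given by counts and by their 4 largest called changes from D0 to D70 in the control. Alternatives were DESeq2 1.42.0, RLE scaling, no filter, a replicate block, the 4 libraries of a stage alone, each library left out in turn and, added after seeing the data, a fit without D70. The edgeR and DESeq2 scripts were tested on simulated data. Columns of authors' comparisons were not used, and DACH1 and NEFL were not analysed here.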

Additional observations from a re-analysis of the deposited data

Results flagged for a closer look

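GFAP stood out because both TMG libraries lay below both controls at D12 and at D0 but above both controls at D30. The TMG effect at D30 was above that at D12 by a log2 difference of 2.38 ± 2.09 (edgeR, adjusted p = 1.0), on 13 counts in TMG and 45 in the control at D12 and 33 and 30 at D30. The effect at D30 was above that at D0 by 1.73, and that difference was not tested.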

How the results depend on the processing

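Calls against D0 were the most stable: those of PTPRZ1 at each stage, and of VIM and TNC at D30 and D70, held in both arms under every alternative run. With each library left out in turn, the number of the 10 genes called in any comparison ranged from 0 to 1 for TMG against control, from 5 to 8 for stages in the control, from 3 to 8 for stages in TMG (7 with all libraries) and from 0 to 1 for the difference of TMG effects. By comparison, it ranged from 0 to 1 for TMG at D30 and at D70, from 1 to 3 for D12 against D0, 0 to 2 for D30 against D12, 0 to 2 for D70 against D30 and 3 to 6 for D70 against D0 in the control, and from 1 to 5, 0 to 3, 0 to 2 and 3 to 8 for the same pairs in TMG. The lowest counts of D70 against D0, 3 of 10 in each arm, came without either D0 library of that arm. Those of D12 against D0, 1 of 10 in each arm, came without either D0 library of that arm and also, in the control, without either D12 library and, in TMG, without replicate 1 of D12. With a library left out, its group has 1 library, assumed to vary like the other groups.

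DESeq2 on 16 libraries called 1 gene under TMG (SLC1A3 at D30), and 5 in D12 against D0, 2 in D30 against D12 and 2 in D70 against D30 in the control and 2 in D30 against D12 in TMG. DESeq2 on the 4 libraries of a stage called 2 genes under TMG, 2 at D12 and 1 at D30. Without the filter, D30 against D12 in the control called 0. Without the D70 libraries, D30 against D12 called 2 in the control and 3 in TMG, and D12 against D0 in TMG called 6. RLE scaling moved no count.

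With the replicate block, 7 genes were called for stages in the control and 6 in TMG, 0 under TMG, and the GFAP call in TMG ended (adjusted p = 0.0570). The labels do not say that replicate numbers pair cultures; the replicate differences of the 2 arms correlated over 24249 genes with r = 0.0453 at D0, 0.367 at D12, 0.223 at D30 and 0.607 at D70.

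Directions turned only with a library left out, the cause of which was not tested. Over the left-out libraries, the control log2 fold changes ran as follows: HOPX from D12 to D30 between -1.26 and 0.369 (without replicate 2 and 1 of D12), S100B over the same stages between -1.98 and 2.38 (replicate 1 and 2 of D12), and VIM from D30 to D70 between -0.044 and 0.67 (replicate 1 and 2 of D70). FABP7 ran between -1.23 and 0.472 from D0 to D12 (replicate 1 and 2 of D0), between -0.893 and 0.25 from D30 to D70 (replicate 1 and 2 of D70; also 0.211 without replicate 1 of D30) and between -0.985 (replicate 1 of D70) and 0.837 (replicate 2 of D0) from D0 to D70, with 0.211 without replicate 2 of D70. AQP4 ran between -1.93 and 0.2 from D0 to D12 (replicate 2 and 1 of D0), between -1.23 and 0.313 from D30 to D70 (replicate 1 and 2 of D70) and between -0.953 (replicate 1 of D70) and 1.49 (replicate 1 of D0) from D0 to D70, with -0.636 without replicate 2 of D0. Without replicate 1 or 2 of D70 TMG, GFAP was -5.16 or 3.98 against control, -3.44 or 5.71 against D0, and -5.9 or 3.25 for the TMG effect at D70 minus D30. Depth limited HOPX, S100B, GFAP and AQP4, which had fewer than 100 counts in 14, 13, 15 and 16 of the 16 libraries.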
